A study of Homo sapiens with 12 samples.

Results

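U87MG, an established human glioblastoma line, was compared after 24 h in hypoxia at 1% O2 and after 24 h in normoxia, both in medium held at the neutral pH of 7.4. The cells grew in DMEM with fetal bovine serum, penicillin and streptomycin, and the oxygen level called normoxia was not stated in the labels. Lysates were separated on a gradient by the number of ribosomes on each mRNA, and RNA was taken by phenol/chloroform from the monosome, oligosome and polysome fractions. The 6 libraries, 1 per fraction and condition, were made with a stranded mRNA kit (KAPA). A further 6 libraries of the series hold the same design at pH 6.0. Levels are FPKM (fragments scaled for transcript length and library size) per assembled locus. Of 55598 loci, the 12099 with a mean of at least 1 FPKM over the 6 libraries were compared. The 3 loci just inside that minimum had means from 1.00034 to 1.00117 FPKM, and the 3 just outside from 0.999555 to 0.999935 FPKM. With 1 library per condition and fraction there is no replicate and no test, so only sizes and the behaviour of the 3 fractions are given. The fractions are not replicates of one another, since they hold mRNAs with few or many ribosomes.

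Cells sense oxygen through prolyl hydroxylases, which mark the alpha subunit of the hypoxia-inducible factor (HIF) for destruction by the VHL ubiquitin ligase while oxygen is present. Without oxygen the alpha subunit is kept, pairs with ARNT and binds DNA at sites that often hold the core ACGTG. Such sites lie near genes of glucose uptake, glycolysis, pH control, vessel growth and matrix assembly. In glioblastoma, hypoxic zones surround areas of necrosis. Low oxygen is also known to lower protein synthesis through mTORC1 and the eIF2-alpha kinase PERK, and mRNAs of ribosomal proteins and translation factors, which start with a C and a run of pyrimidines, are among those most tied to mTORC1.

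The monosome libraries stand apart from the other 4 in scale. Their relative depth, read from the FPKM of single fragments, was 1 in normoxia and 0.785 in hypoxia. In the oligosome and polysome libraries it was 1.92 to 2.36. This value also carries the normalization of each library, so it is not sequencing depth alone. The FPKM summed to 921452 and 1258250 in the monosome libraries of normoxia and hypoxia, against 454424 to 505054 in the others. Loci without a gene name held 17.6%, 13.8% and 10.6% of the FPKM of the monosome, oligosome and polysome libraries in normoxia and 3.18%, 5.23% and 14.2% in hypoxia, so their share was lower in both lighter fractions of hypoxia and higher in the polysome fraction. The 100 loci with the most FPKM held 66.2% and 68.7% of the monosome libraries and at most 45.1% of any other. The RNA factors that the authors applied to their libraries summed to 10.5 in normoxia and 8.53 in hypoxia, a ratio of 0.809, with 51.0% and 47.3% of each sum in the polysome fraction. Of 12 glioma and mesenchymal marker genes, 5 reached 1 FPKM (VIM, CD44, SOX9, EGFR and PDGFRA). NES, SOX2, GFAP, S100B, OLIG2, FABP7 and CHI3L1 did not. Of 24 markers of endothelial, epithelial, immune and neuronal cells, 6 did so and 9 were at 0.

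Each change below is log2 of (hypoxic FPKM + 1) over (normoxic FPKM + 1), minus the median of that quantity over the 12099 loci, so it is relative to the typical locus and understates changes of low loci. It is given for the unweighted mean of the 3 fractions and for each fraction. The unweighted mean is set mostly by the fraction with the most FPKM, often the monosome fraction. A locus was called when the mean differed at least 2-fold and all 3 fractions differed in that direction. By this rule 699 loci were higher in hypoxia (5.78% of those compared) and 384 were lower (3.17%). In each of the 3 fractions at once, 262 loci (2.17%) were at least 2-fold higher and 56 (0.463%) at least 2-fold lower. Without the monosome libraries, 666 loci were called higher and 300 lower. The 3 hypoxic levels lay above the 3 normoxic ones at 802 loci (6.63%) and below them at 749 (6.19%). In bulk RNA, fewer cells with a transcript and less of it per cell cannot be told apart.

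The fractions differed in how far they followed one another. In the monosome fraction 1495 loci (12.4%) were at least 2-fold higher and 1374 (11.4%) lower, in the oligosome fraction 702 (5.80%) and 470 (3.88%), and in the polysome fraction 755 (6.24%) and 441 (3.64%). Over all 12099 loci, Pearson's r between changes was 0.557 for oligosome and polysome, 0.497 for monosome and oligosome, and 0.276 for monosome and polysome. Over the 7546 protein-coding loci the same values were 0.769, 0.581 and 0.499. The loci share each library and its depth, and r is given as a description. Among the 719 loci with a mean of at least 100 FPKM, r between the monosome and polysome changes was 0.00294. A single direction in all 3 fractions was seen at 6379 loci (52.7%), and opposite changes past 2-fold in different fractions at 102 (0.843%). Of the 839 loci whose mean was at least 2-fold lower, 455 lacked a common direction in the fractions and were not called, against 147 of 846 on the higher side.

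**Figure D1:**
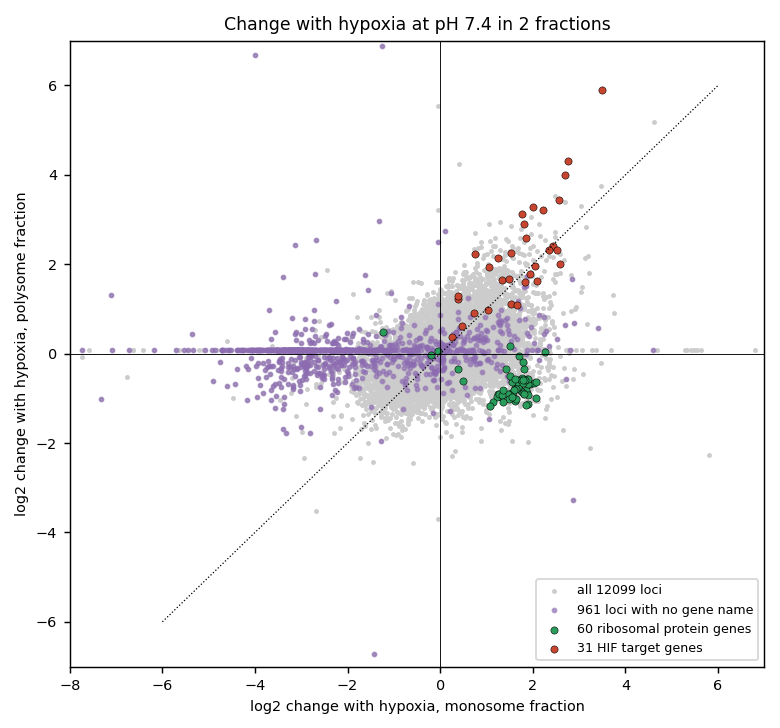
Change in the polysome fraction (y axis) against change in the monosome fraction (x axis), both as centred log2 hypoxia over normoxia of FPKM + 1, for the 12099 loci compared (grey), with 961 loci that have no gene name (purple), 60 ribosomal protein loci (green) and 31 HIF target loci (red); the dotted line marks equal change and 22 loci lie outside the axes. The HIF targets lie above 0 on both axes, the ribosomal protein loci lie mostly to the right and below 0, and the loci with no gene name lie mostly to the left.

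Most genes of the oxygen-sensing machinery itself were not called, as was true of most loci. HIF1A, the oxygen-regulated alpha subunit, lies in a locus that also names SNAPC1 and a clone, with 19.5, 15.1 and 40.02 FPKM in the monosome, oligosome and polysome fractions of normoxia and 22.9, 31.3 and 50.4 FPKM in hypoxia. Its change of the mean was 0.51 and it was not called. EPAS1, which encodes the second alpha subunit HIF-2-alpha, had 63.4, 35.5 and 29.6 FPKM in normoxia and 35.7, 26.2 and 46.1 FPKM in hypoxia. EPAS1 was thus lower in the lighter fractions and higher in the polysome fraction, with changes of -0.86, -0.36 and 0.70. ARNT, the shared beta subunit, was at 0.28, and the VHL locus, shared with BRK1, at 0.34, neither called. EGLN1, the main oxygen-sensing prolyl hydroxylase, was at 0.69, and the locus shared by EGLN3 and SPTSSA at -0.40, also not called. Of 11 core genes in loci of their own, 1 was called (OS9, a lectin of endoplasmic reticulum quality control, 1.33). With 5.78% of all loci called higher and 3.17% lower, a count this small is near the background. The median over the 11 was 0.28.

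The targets of HIF were higher almost throughout. Of 40 listed, 31 had a locus of their own above the minimum, 27 of these were called higher (87.1%, beside 5.78% of all loci) and 22 passed 2-fold in each fraction (beside 2.17%). All 31 lay above 0 in each fraction, with median changes of 1.80, 2.26 and 2.002 in monosome, oligosome and polysome. These are textbook targets, chosen with earlier results of these cells known. Together the 31 held 0.133%, 0.179% and 0.514% of the FPKM of the normoxic libraries and 0.441%, 1.08% and 2.35% of the hypoxic ones. The 4 that missed the call were KDM4B at 0.97, PDK1 at 0.91, EGLN1 at 0.69 and KDM3A at 0.43. PDK1, the kinase that holds pyruvate back from the mitochondria, had 8.15, 5.07 and 5.88 FPKM in normoxia and 14.6, 11.5 and 11.2 FPKM in hypoxia, so its groups did not overlap although it stayed under 2-fold. Without the monosome fraction PDK1 and KDM4B reached 1.03 and 1.22 and were called, and the median of the 31 was 2.14.

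IGFBP3, a secreted carrier of insulin-like growth factors (chr7:45912245-45921874, GRCh38, minus strand), had the largest increase among protein-coding loci. It had 9.57, 2.29 and 8.45 FPKM in the monosome, oligosome and polysome fractions of normoxia and 122, 115 and 534 FPKM in hypoxia. Every hypoxic library was above every normoxic one, and the change of the mean was 5.09, with 3.49, 5.20 and 5.90 in the fractions. LOX, the oxidase that crosslinks collagen (chr5:122063195-122078360, minus strand), had 5.87, 2.59 and 5.21 FPKM in normoxia and 47.2, 43.4 and 115 FPKM in hypoxia, a change of 3.69. NDRG1, a growth-arrest and differentiation gene widely used as a mark of hypoxia (chr8:133237171-133302022, minus strand), had 59.5, 41.3 and 103 FPKM and then 404, 485 and 1572 FPKM. Its change of 3.61 was built from 2.70, 3.58 and 3.99, and like IGFBP3 and LOX it was larger in the heavier fractions.

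CA9, the cell-surface carbonic anhydrase that turns carbon dioxide into bicarbonate and acid (chr9:35673856-35681159, plus strand), had 34.5, 34.5 and 107 FPKM in normoxia and 217, 253 and 1108 FPKM in hypoxia, a change of 3.18. Its relative CA12 had 9.33, 7.36 and 35.3 FPKM and then 37.6, 42.7 and 206 FPKM, a change of 2.43. Both enzymes had most FPKM in the polysome fraction of hypoxia, and no hypoxic library of either fell as low as a normoxic one. SLC2A1, the glucose transporter GLUT1 (chr1:42925375-42959176, minus strand), had 11.2, 10.4 and 12.1 FPKM in normoxia and 57.3, 64.4 and 115 FPKM in hypoxia, a change of 2.74. SLC2A3, the GLUT3 transporter, changed by 2.26, and the locus of SLC16A3, the lactate exporter MCT4, by 2.68. The SLC16A3 locus also names other genes.

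VEGFA, the main angiogenic growth factor (chr6:43770184-43786487, plus strand), had 129, 81.6 and 125 FPKM in normoxia and 809, 381 and 479 FPKM in hypoxia. All hypoxic levels were above all normoxic ones, but VEGFA went the other way from IGFBP3 across the gradient, with changes of 2.60, 2.27 and 2.002 from monosome to polysome. ADM, a vessel-dilating peptide, had 40.6, 32.8 and 69.9 FPKM and then 231, 269 and 355 FPKM, a change of 2.59. ANGPTL4, a secreted inhibitor of lipoprotein lipase, was nearly absent in normoxia at 0.548, 0.303 and 0.421 FPKM and had 5.44, 5.49 and 11.998 FPKM in hypoxia. STC1, a secreted glycoprotein, changed by 2.26, and IL8, a neutrophil-attracting chemokine that also acts on vessels, by 1.86. Of 13 measured angiogenic and vasoactive factors 6 were called higher and none lower, with a median of 0.97, beside 5.78% and 3.17% of all loci.

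Other HIF targets act in growth control and in mitochondria. DDIT4, the REDD1 inhibitor of mTORC1, had 125, 109 and 178 FPKM in normoxia and 534, 713 and 657 FPKM in hypoxia, a change of 2.24. BNIP3, a receptor that marks mitochondria for autophagy, had 77.1, 101 and 179 FPKM and then 342, 466 and 524 FPKM, a change of 1.93, and the shared locus of its relative BNIP3L changed by 1.65. BHLHE40, a transcriptional repressor of the clock family, changed by 2.07, and the locus of MXI1, an antagonist of MYC, by 2.21. FAM162A, a mitochondrial protein, had 27.3, 36.4 and 72.5 FPKM and then 167, 230.1 and 348 FPKM, a change of 2.46. For each of DDIT4, BNIP3 and FAM162A all hypoxic levels were above all normoxic ones, as at 6.63% of all loci.

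**Figure D2:**
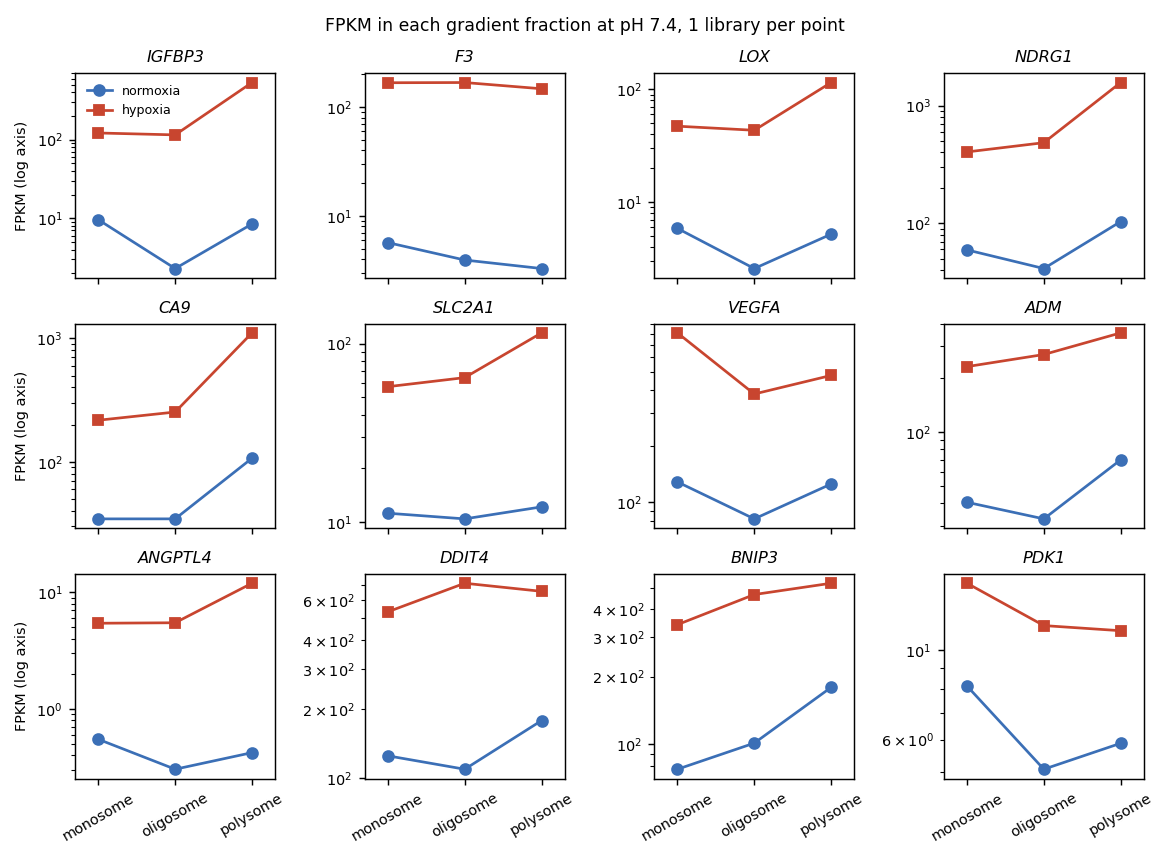
FPKM (log axis) in the monosome, oligosome and polysome fractions of 12 oxygen-responsive genes, 1 point per library, normoxia in blue and hypoxia in red. In each of the 12 genes all 3 hypoxic points lie above all 3 normoxic points, as at 6.63% of all loci; the genes were chosen as oxygen-responsive and range from PDK1 with a change of 0.91 to IGFBP3 with 5.09.

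The DNA upstream of the RefSeq transcript start of these targets is shown because the ACGTG form of the HIF core can be read in it directly. ACGTG or its reverse complement CACGT (both strands searched; the patterns overlap where a palindromic CACGTG occurs) was present in the 250 bases before the transcript start of 18.7% of 27305 RefSeq promoters (GRCh38.p14). It was present in 14 of the 25 HIF targets with a promoter entry (56%), in 24.2% of 6019 protein-coding loci compared, in 26.5% of the 302 called higher and in 29.3% of the 116 called lower. The match rate of all called genes was thus near that of the loci compared, and a match is a string of letters and not a shown binding site. The windows lie at chr5:122078284-122078313 on the minus strand for LOX, chr9:35673898-35673927 on the plus strand for CA9, chr10:72273674-72273919 on the plus strand for DDIT4 and chr3:122383932-122384175 on the plus strand for FAM162A. Capitals mark the core, in sequence from RefSeq written 5′ to 3′ on the gene's strand. LOX holds 4 matches of ACGTG or CACGT in its 250 bases, of which the nearest to the start is shown. The other 3 genes hold 1 match each. The LOX and CA9 windows lie before the RefSeq start but inside the GENCODE gene spans given above, as the annotations place the start differently. Variants such as GCGTG, which occurs in the DDIT4 and FAM162A sequences, were not searched, marked or counted.
LOX: gtaactttgcaaACGTGccagaaagtttaa
CA9: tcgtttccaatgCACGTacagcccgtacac
DDIT4: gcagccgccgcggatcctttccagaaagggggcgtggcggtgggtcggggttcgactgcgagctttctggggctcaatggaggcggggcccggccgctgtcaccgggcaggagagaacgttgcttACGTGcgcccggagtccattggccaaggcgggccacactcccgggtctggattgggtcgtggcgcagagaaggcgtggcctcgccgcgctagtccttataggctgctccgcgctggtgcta
FAM162A: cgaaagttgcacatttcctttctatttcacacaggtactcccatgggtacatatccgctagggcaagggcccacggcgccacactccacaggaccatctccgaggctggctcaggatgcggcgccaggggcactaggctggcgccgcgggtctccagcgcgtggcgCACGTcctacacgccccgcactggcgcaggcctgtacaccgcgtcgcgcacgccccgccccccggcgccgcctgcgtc

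Glycolysis was higher from glucose entry to pyruvate. Of 12 genes of glucose transport and glycolysis with loci of their own 9 were called higher and none lower. This compares with 5.78% and 3.17% of all loci, and the median was 1.61. The 12 include the transporters SLC2A1 and SLC2A3, which had the largest changes of the list. SLC2A1, SLC2A3, ALDOA, HK2 and PFKFB3 are also counted among the HIF targets above. HK2, the inducible hexokinase, had 8.59, 6.84 and 11.6 FPKM in normoxia and 15.6, 21.3 and 54.8 FPKM in hypoxia, a change of 1.70. PFKFB3, which makes the activator of phosphofructokinase, changed by 1.54, and the phosphofructokinase subunits PFKL and PFKP by 1.65 and 1.31. ALDOA, the aldolase, changed by 1.94. GAPDH, often used as a reference gene, had 2903, 813 and 2654 FPKM in normoxia and 12308, 3331 and 6485 FPKM in hypoxia, a change of 1.84 with no overlap between conditions. PKM, the last enzyme of the path, had 378, 199.96 and 328 FPKM and then 745, 517 and 1366 FPKM, with changes of 0.93, 1.43 and 2.13. The loci of ENO1 and LDHA, each shared with other names, changed by 1.59 and 1.49. PGK1 and TPI1 are listed at or near 0 in all 6 libraries and were not compared. GAPDH and other glycolytic genes have many processed pseudogenes, so their FPKM may hold reads of copies.

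The 3 glycolytic loci that were not called were HK1 at 0.93, PGAM1 at 0.87 and PFKM at 0.50. In glycogen metabolism 3 of 9 genes were called higher (5.78% of all loci): PPP1R3C and PPP1R3B, which bring a phosphatase to glycogen, at 2.35 and 1.75, and the glycogen synthase GYS1 at 1.89. GYS1 had 4.25, 3.61 and 4.56 FPKM in normoxia and 11.3, 14.4 and 26.8 FPKM in hypoxia. None of 10 genes of the pyruvate dehydrogenase complex and its kinases was called, with a median of -0.02. Of all loci 5.78% were called higher and 3.17% lower, so few calls or none are the background for lists of this size. None of 16 citric acid cycle genes was called either, with a median of 0.12 that turned to -0.18 when levels were scaled by the RNA factors and to -0.029 without the polysome fraction.

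Genes that build the extracellular matrix were higher as a group, most of all in the polysome fraction. Of 10 collagen genes 5 were called higher (5.78% of all loci) and none lower, with medians of 0.60, 0.66 and 1.74 from monosome to polysome. COL1A2, a chain of type I collagen (chr7:94394561-94431232, plus strand), had 16.3, 27.8 and 30.6 FPKM in normoxia and 68.9, 142 and 249.9 FPKM in hypoxia, a change of 2.62. Its partner COL1A1 had 4.46, 4.97 and 4.79 FPKM and then 15.8, 21.5 and 27.1 FPKM, a change of 2.01. Neither gene overlapped between conditions, and 6.63% of all loci were higher in hypoxia without overlap. COL5A1 changed by 2.08, COL6A3 by 1.58 and COL6A2 by 1.47. COL6A1, at 4.63, 6.03 and 5.79 FPKM in normoxia and 3.39, 7.99 and 18.2 FPKM in hypoxia, was lower in the monosome fraction and higher in the polysome fraction, and was not called.

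Enzymes that hydroxylate, fold and crosslink collagen followed. Of 12 measured, 10 were called higher (5.78% of all loci), the median was 1.47, and in 10 of the 12 the change grew in order from monosome to polysome, an order seen at 24.2% of all loci. P4HA2, a collagen prolyl hydroxylase, had 10.3, 8.03 and 13.1 FPKM in normoxia and 39.7, 41.7 and 98.4 FPKM in hypoxia, a change of 2.45. PLOD2, a collagen lysyl hydroxylase, had 14.6, 10.7 and 17.3 FPKM and then 25.8, 39.8 and 86.7 FPKM, a change of 1.81. P4HB, the beta subunit of the prolyl hydroxylase, changed by 1.49, PLOD1 by 1.73, the crosslinking oxidase LOXL3 by 2.26 and the collagen chaperone SERPINH1 by 1.38. For P4HA2, PLOD2 and P4HB each hypoxic library was above each normoxic one, as at 6.63% of all loci. LOX and P4HA2 of this list are also counted among the HIF targets above. CRTAP, a member of the prolyl 3-hydroxylase complex, went the other way across the gradient, with changes of 1.73, 0.999 and -0.10.

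Among other matrix and mesenchymal genes 12 of 20 were called higher (5.78% of all loci) and none lower, with a median of 1.20. TGFBI, a matrix protein induced by TGF-beta, had 121, 82.1 and 72.3 FPKM in normoxia and 814, 473 and 724 FPKM in hypoxia, a change of 2.90. VIM, the mesenchymal intermediate filament vimentin (chr10:17228259-17237593, plus strand), was an abundant mRNA called higher, at 1337, 902 and 958 FPKM in normoxia and 7899, 4687 and 3102 FPKM in hypoxia. Neither TGFBI nor VIM overlapped between conditions, beside 6.63% of all loci that were higher in hypoxia without overlap. The opposite-strand transcript VIM-AS1 had 18.7, 7.32 and 10.9 FPKM and then 270.1, 72.3 and 27.0 FPKM. Whether fragments were assigned by strand is not given in the sources used here, so fragments of VIM and VIM-AS1 may not be separated. SPARC, a collagen-binding matrix protein, changed by 1.87.

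F3, tissue factor, the membrane receptor that starts coagulation (chr1:94529225-94541800, minus strand), had the largest increase after IGFBP3 among protein-coding loci. It had 5.68, 3.93 and 3.28 FPKM in normoxia and 167, 168 and 147 FPKM in hypoxia, a change of 4.97, with no overlap and nearly equal hypoxic levels in the fractions. C10orf10, also called DEPP1, had 16.9, 13.6 and 21.6 FPKM and then 203, 239 and 285 FPKM, a change of 3.77. CPA4, a secreted carboxypeptidase, changed by 2.91, SPAG4, a nuclear envelope protein, by 3.25 and TMEM45A, a membrane protein, by 2.67. NMU, a neuropeptide precursor, changed by 2.77 but stayed low in the polysome fraction, at 4.204, 1.12 and 0.121 FPKM in normoxia and 37.1, 15.1 and 1.06 FPKM in hypoxia. In signalling by the EGF receptor, whose gene is a glioma driver, ERRFI1 and LRIG1, both inhibitors of the receptor, changed by 2.47 and 1.89, and the ligand EREG by -1.28. Of 11 genes of that group 2 were called higher and 1 lower, beside 5.78% and 3.17% of all loci.

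Chaperones of the secretory pathway were higher to a lesser degree. Of 14 chaperones of the endoplasmic reticulum 7 were called higher (5.78% of all loci) and none lower, with a median of 0.88. HSPA5, the chaperone BiP, had 16.1, 17.0 and 29.002 FPKM in normoxia and 24.9, 36.6 and 99.8 FPKM in hypoxia, a change of 1.38, and its monosome level in hypoxia lay below its polysome level in normoxia. HSP90B1 changed by 1.59 and the calcium-binding CALR by 1.28. HSPA5 and CALR lost the call without the polysome fraction, at 0.87 and 0.89. In the integrated stress response, which PERK can start, 3 of 28 genes were called higher against 1 lower. This compares with 5.78% and 3.17% of all loci, so the lower share was at the background. Of the genes called higher, DDIT4 and VLDLR are also counted among the HIF targets above. The median of the response over its 28 genes was 0.08. ATF4, its central transcription factor, had 245, 210.2 and 61.1 FPKM in normoxia and 357, 138 and 35.2 FPKM in hypoxia, higher in the monosome fraction and lower in the other two. Its target DDIT3 (CHOP) was at 0.35, and neither was called. The serine synthesis enzymes PHGDH and PSAT1 were called in opposite directions, at 1.53 and -1.04, and PSAT1 lost its call without the polysome fraction, at -0.64. Of 27 lysosome and autophagy genes 8 were called higher (5.78% of all loci) and none lower, with a median of 0.62. They were BNIP3, PINK1, MAP1LC3A, ULK1 and GABARAPL1, which act in autophagy, and GRN, PSAP and TPP1, which act in lysosomes.

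**Figure D3:**
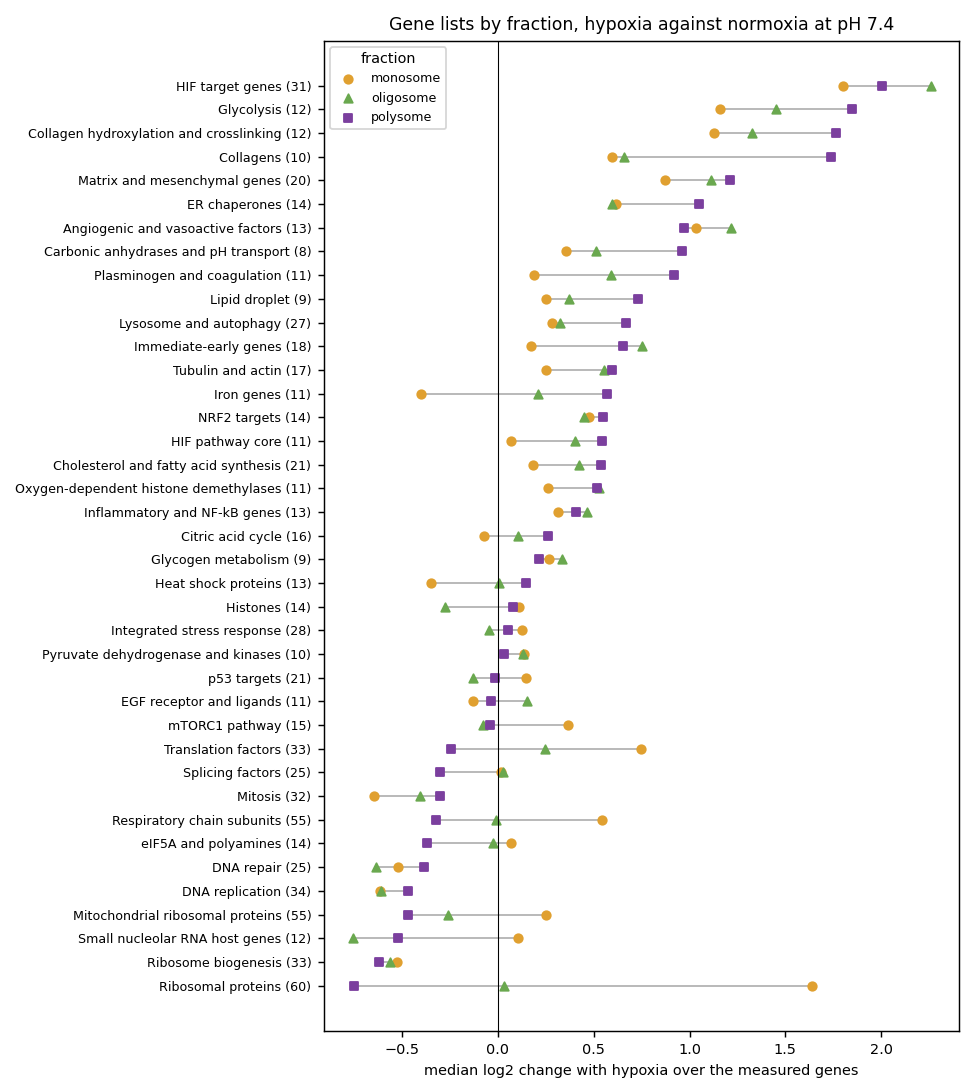
Median centred log2 change of FPKM + 1 in the monosome, oligosome and polysome fractions (x axis, hypoxia over normoxia) for each gene list with at least 8 measured members (y axis), 1 point per fraction. HIF targets lie highest at 1.80, 2.26 and 2.002, and ribosomal proteins have the widest spread between fractions, from 1.64 to -0.75.

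Fewer named genes were lower in hypoxia. The lists with the lowest medians were those of growth: DNA replication at -0.54, DNA repair at -0.50, ribosome biogenesis at -0.47 and mitosis at -0.45. Each held a few called genes, 4 of 34, 2 of 25, 4 of 33 and 2 of 32 lower and none higher, beside 3.17% of all loci lower. Named examples were the polymerase subunit POLE2 at -1.15, the S-phase transcription factor E2F1 at -1.11, the sliding clamp PCNA at -1.001, the checkpoint protein MAD2L1 at -1.13, cyclin A2 (CCNA2) at -1.0004 and the BRCA1 partner BARD1 at -1.33. PCNA had 31.5, 25.5 and 178 FPKM in normoxia and 13.99, 14.7 and 84.1 FPKM in hypoxia, and was close to 2-fold lower in the monosome and polysome fractions. Without the monosome fraction PCNA, CCNA2 and BARD1 lost the call, at -0.93, -0.90 and -0.57. NOP56, of ribosome biogenesis, was called lower at -2.14, with 318, 32.6 and 18.6 FPKM in normoxia. Its normoxic monosome level was at least 10 times its polysome level, so it belongs to the monosome-confined loci described below.

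ODC1, ornithine decarboxylase, the first and rate-limiting enzyme of polyamine synthesis (chr2:10439968-10448504, minus strand), had the largest decrease among protein-coding loci, leaving aside those found almost only in the monosome fraction. It had 47.2, 70.3 and 69.1 FPKM in normoxia and 13.96, 16.04 and 12.1 FPKM in hypoxia, with no overlap, a change of -2.03 and -1.73, -2.004 and -2.34 in the fractions. Later steps of the path were not called: AMD1, which supplies the aminopropyl donor, at -0.91 and the spermidine synthase SRM at -0.73. EIF5A, the translation factor that carries a spermidine-derived hypusine, had 251, 476 and 661 FPKM and then 191, 327 and 389 FPKM, a change of -0.57. ARG2, the mitochondrial arginase that makes ornithine, was called higher at 1.28. The 14 genes of this group had a median of -0.20.

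TNFRSF21, a death receptor of the tumour necrosis factor family, had 4.39, 8.45 and 10.5 FPKM in normoxia and 0.886, 1.27 and 1.71 FPKM in hypoxia, a change of -1.90. DBF4, the activator of the CDC7 replication kinase, had 21.8, 21.4 and 28.2 FPKM and then 4.25, 9.08 and 7.78 FPKM, a change of -1.59. PPARG, a nuclear receptor of lipid metabolism, changed by -1.55, the MYC-regulated CDCA7 by -1.49, the phenylalanyl-tRNA synthetase subunit FARSB by -1.48 and the complex I assembly factor NDUFAF4 by -1.46. In TNFRSF21, DBF4, PPARG, CDCA7 and FARSB every hypoxic library was below every normoxic one, as at 6.19% of all loci. FOSL1, an AP-1 subunit, changed by -1.36, while its partner gene JUNB changed by 1.55. Of the respiratory chain 2 of 55 measured genes were called lower, the electron carrier CYCS at -1.31 and the ATP synthase subunit ATP5G1 at -1.01, and 1 higher, COX4I1 at 1.02. Beside 3.17% and 5.78% of all loci these counts are no more than the background. Without the monosome fraction COX4I1 was at 0.41 and was not called, and without the polysome fraction ATP5G1 was at -0.83.

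Many of the lower calls were at loci found almost only in the normoxic monosome fraction. At 1180 loci the normoxic monosome FPKM was at least 10 times the normoxic polysome FPKM, and 751 of these have no gene name. They hold 188 of the 384 lower calls (48.96%). These loci were selected on a high normoxic monosome level, which is also the base of their monosome change, so a lower change is partly fixed by the selection and the count is only a description of where the calls lie. Of the 15 named loci with the largest decreases, 12 were of this kind. SIRT1, a protein deacetylase, is an example: the locus had 1507, 15.5 and 3.26 FPKM in normoxia and 178, 3.40 and 0.531 FPKM in hypoxia, while a second locus of that name was at -0.29 and was not called. FSCN1, the actin-bundling protein fascin, has a monosome-confined locus at -2.31 and a second locus that was called higher, at 18.998, 18.7 and 39.9 FPKM in normoxia and 41.9, 39.3 and 115 FPKM in hypoxia. The part of the differences in relative depth, FPKM sum and loci without a gene name, given above, in these calls was not tested.

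Of the 699 higher calls, 630 (90.1%) lay outside these monosome-confined loci, as did 10919 of the 12099 loci compared. The share called higher was 5.85% among the confined loci and 5.77% among the others. Protein-coding loci gave 148 of the 384 lower calls, 1.96% of their number, and the 961 loci without a gene name gave 164, or 17.1%.

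The distribution along the gradient was described by the shift, the change in the polysome fraction minus that in the monosome fraction, again centred on the median locus. It equals the log2 ratio of translational efficiencies in hypoxia and normoxia, where efficiency is polysome over monosome FPKM, apart from the added 1 and the centring. By this measure 2390 loci (19.8%) shifted at least 1.5-fold towards polysomes in hypoxia and 2603 (21.5%) towards monosomes. Of these, 1514 and 1734 also passed 1.5-fold as oligosome over monosome. Among the 1180 monosome-confined loci 68.1% shifted towards polysomes and 13.1% towards monosomes, against 14.5% and 22.4% of the other 10919. The confined loci were selected on a high normoxic monosome level, which also enters their shift, so their share is partly fixed by the selection. The shares of all loci given beside the lists below include both kinds. The monosome library of hypoxia is in every shift, so a trait of that one library would enter all of them.

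Ribosomal protein mRNAs lay in lighter fractions in hypoxia than in normoxia. Of 60 with loci of their own, 57 shifted at least 1.5-fold towards monosomes (beside 21.5% of all loci) and the median shift was -2.44. Their median level went from 1879 to 6304 FPKM in the monosome fraction, from 1009.8 to 1065 FPKM in the oligosome fraction and from 711 to 407 FPKM in the polysome fraction. The median change was thus 1.64 in monosomes, 0.03 in oligosomes and -0.75 in polysomes, and the median ratio of polysome to monosome FPKM went from 0.404 to 0.0692. In 54 of 60 the change fell in order from monosome to oligosome to polysome, an order seen at 22.3% of all loci. The 60 together held 19.3%, 15.6% and 10.6% of the FPKM of the normoxic libraries and 37.6%, 14.7% and 6.03% of the hypoxic ones.

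RPL31, of the large subunit, had 3395, 2276 and 1150.1 FPKM in normoxia and 14689, 1995 and 549 FPKM in hypoxia, a shift of -3.09. RPS7, of the small subunit, had 1306, 577 and 786 FPKM and then 5015, 649 and 343 FPKM, a shift of -3.05. Both were higher in the hypoxic monosome fraction and lower in the hypoxic polysome fraction. Since the directions differ between fractions, 1 of the 60 was called (RPL10, 1.79), and the median change of the mean, 1.10, turned to -0.28 without the monosome fraction. RPL10 itself was at 0.57 without it. The 3 that did not shift towards monosomes were RPSA, RPLP0 and RPS19. RPLP0, a stalk protein, had 13549, 3182 and 953 FPKM in normoxia and 12259.6, 3195 and 890.2 FPKM in hypoxia, and the RPS19 locus was low in all libraries, at 2.202, 2.37 and 0.231 FPKM in normoxia and 0.414, 1.44 and 0.635 FPKM in hypoxia. Ribosomal protein genes have many processed pseudogenes, so single values are uncertain where the authors' counting split reads between copies.

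**Figure D4:**
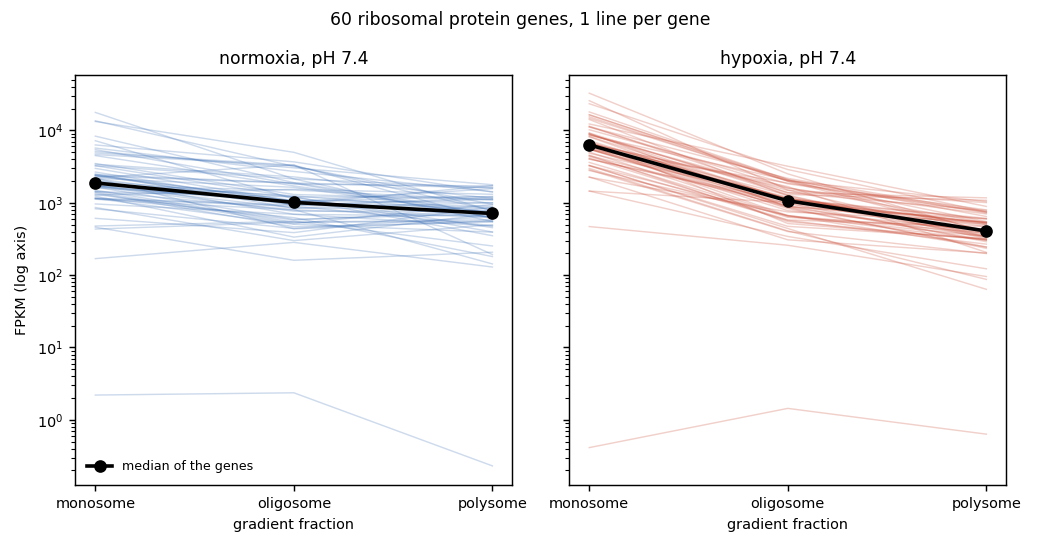
FPKM (y axis, log scale) of 60 ribosomal protein loci in the monosome, oligosome and polysome fractions (x axis) of normoxia (left, blue) and hypoxia (right, red), 1 line per locus and the median in black. The median goes from 1879 through 1009.8 to 711 FPKM in normoxia and more steeply from 6304 through 1065 to 407 FPKM in hypoxia, and the lowest line is RPS19.

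The first 20 bases of transcripts are shown for 6 of these genes, because a start with C followed by pyrimidines is the sequence tied to mTORC1 control. Capitals mark the unbroken run of C and T from the first base, counted where that base is C. A run of at least 5 was present in 28 of 46 ribosomal protein genes with an entry (60.9%), in 8 of 25 translation factors (32%) and in 4.04% of all 27305 RefSeq promoters. The windows (RefSeq, GRCh38.p14) lie at chr2:101002289-101002308 on the plus strand for RPL31, chr3:197950190-197950209 on the plus strand for RPL35A, chr20:62387103-62387122 on the plus strand for RPS21, chr5:150449720-150449739 on the minus strand for RPS14, chr2:3575260-3575279 on the plus strand for RPS7 and chr3:12841546-12841565 on the minus strand for RPL32. The annotated start may differ from the start used in these cells by a few bases. The median shift was -2.38 in the 28 ribosomal protein genes with such a run and -2.44 in the 18 without, so the annotated run did not separate them.
RPL31: CTTCCTTTCCaacttggacg
RPL35A: CTTCTCTTaccgccatcttg
RPS21: CCTTTCTCTCTCgcgcgcgg
RPS14: CTCTCTTTCCggtgtggagt
RPS7: CTCgcgctgtttccgcctct
RPL32: agcccttgcgcgccaccgtc

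Other mRNAs of the translation and respiration machinery shifted in the same direction by less. Of 33 translation factors 16 shifted at least 1.5-fold towards monosomes and 1 towards polysomes, with a median of -0.45, beside 21.5% and 19.8% of all loci. By the change of the mean, 4 of the 33 were called higher, beside 5.78% of all loci. Among them were the elongation factors EEF2 at 1.95 and EEF1A1 at 1.71. The list's median change of 0.30 turned to -0.21 with RNA factor scaling. EEF1A1 had 2447, 1049 and 579 FPKM in normoxia and 10389, 1896 and 697 FPKM in hypoxia, so most of its difference was in the monosome fraction, and without that fraction its change was 0.77. Of 55 respiratory chain subunits 36 shifted towards monosomes, with a median shift of -0.83 (21.5% of all loci), and of 55 mitochondrial ribosomal proteins 30, with -0.63. The 12 host genes of small nucleolar RNAs, which are long noncoding RNAs and not mRNAs of this machinery, had a median shift of -0.68. Several of them, such as SNHG5 and GAS5, are monosome-confined. NPM1, the nucleolar chaperone of ribosome assembly, shifted by -2.49.

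Transcript length moved with the shift. Among 7546 protein-coding loci, Spearman's rho between GENCODE transcript length and shift was 0.224, across genes and as a description. Split by length into 5 equal classes, the shortest, of 312 to 1925 bases, had a median shift of -0.35, and the next 4 had 0.01, 0.06, 0.11 and 0.10. In that shortest class 37.2% of loci shifted at least 1.5-fold towards monosomes, against 11.7% to 17.6% in the others. Without the ribosomal, mitochondrial ribosomal and respiratory chain lists the median of the shortest class was -0.30 over 1394 loci. The part of length in the shift of ribosomal proteins was not tested.

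**Figure D5:**
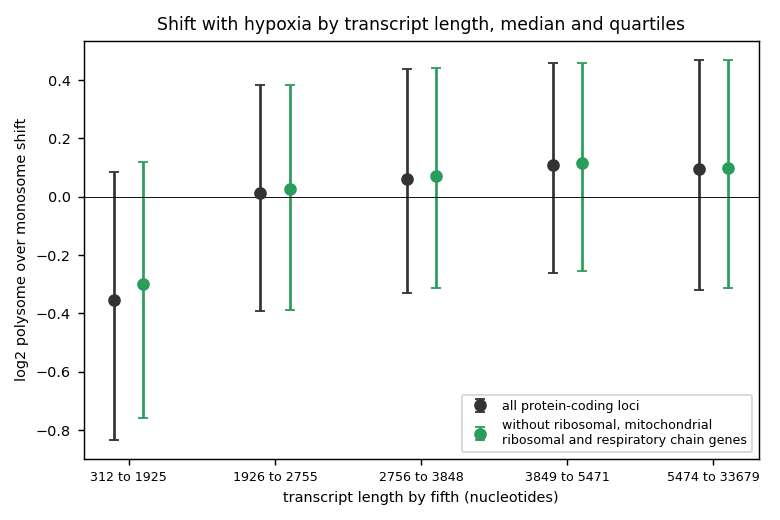
Median (points) and quartiles (bars) of the centred log2 shift from monosome to polysome (y axis, hypoxia over normoxia) in 5 classes of GENCODE transcript length (x axis, shortest first), for all 7546 protein-coding loci and without the ribosomal protein, mitochondrial ribosomal protein and respiratory chain lists. The shortest class lies below 0, at -0.35 with the lists and -0.30 without.

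Collagen genes and their enzymes lay in heavier fractions in hypoxia. Collagens had a median shift of 0.85, with 6 of 10 past 1.5-fold, and collagen-modifying enzymes 1.04, with 8 of 12 (beside 19.8% of all loci). HIF targets had a median of 0.30, with 15 of 31 past 1.5-fold towards polysomes and 2 towards monosomes. IGFBP3 shifted by 2.38, HK2 by 1.46, PKM by 1.17 and SLC2A1 by 0.97, but VEGFA by -0.63 and GAPDH by -0.70. Immediate-early genes, the first transcripts made after a stimulus, had a median of 0.60, with 10 of 18 past 1.5-fold (19.8% of all loci) and 1 the other way. JUNB among them had 79.6, 36.2 and 31.6 FPKM in normoxia and 139, 141 and 144 FPKM in hypoxia, a shift of 1.45.

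The ferritin mRNAs, whose translation is repressed by iron regulatory proteins when iron is short, moved together. FTH1, the heavy chain, had 55516, 6135 and 2155 FPKM in normoxia and 42556, 9778 and 3208 FPKM in hypoxia, and FTL, the light chain, had 64495, 4513 and 1575 FPKM and then 50313, 6602 and 2353 FPKM. Both were lower in the monosome fraction and higher in the oligosome and polysome fractions of hypoxia. Their shifts were 1.05 and 1.03, while their changes of the mean were -0.16 and -0.21. Both are monosome-confined loci, among which 68.1% shifted at least 1.5-fold towards polysomes, against 14.5% of the other loci. The part of that selection in the ferritin shifts was not tested. TFRC, the transferrin receptor, which the same proteins stabilise, had 15.8, 13.5 and 16.6 FPKM in normoxia and 5.38, 7.49 and 11.6 FPKM in hypoxia, lower in each fraction without reaching the call at -0.79. STEAP3, an endosomal iron reductase, was the only one of 11 iron genes called, at 1.60, beside 5.78% of all loci called higher. Ferritin has many pseudogenes, so copies may contribute.

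Large shifts of single loci can lie in 1 library. RNF10, a ubiquitin ligase, had 24059, 886 and 28883 FPKM in normoxia and 228, 8865 and 19022 FPKM in hypoxia, so its shift of 6.20 lay mostly in the hypoxic monosome library, and its fractions changed in opposite directions. LRPPRC, a mitochondrial mRNA-binding protein, was lower in monosomes and higher in polysomes and shifted by 2.07, with FPKM of 8.28, 5.71 and 6.41 in normoxia and 2.59, 7.25 and 10.3 in hypoxia, and its change of the mean was 0.02.

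Several lists gave little. Of 13 heat shock proteins 2 were called, with a median of -0.06, and of 21 p53 targets 1 was called higher and 2 lower, beside 5.78% and 3.17% of all loci. None of 14 histone genes was called. Of 21 genes of cholesterol and fatty acid synthesis 1 was called, lower, while 4 of 9 lipid droplet genes were called higher (5.78% of all loci), among them FABP3, a fatty acid carrier, at 2.23. NEAT1, the nuclear paraspeckle RNA, had 239.8, 106 and 13.5 FPKM in normoxia and 1050.5, 161 and 34.1 FPKM in hypoxia, a change of 1.82, mostly in the monosome fraction and 0.79 without it.

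The same contrast at pH 6.0 uses other libraries. Of the 699 loci called higher at pH 7.4, 282 were also called higher there (40.3% of the 699 and 36.8% of the 767 called at pH 6.0, which are 6.34% of all loci), and 614 (87.8%) had a positive change, against 49.996% of all loci. Of the 384 called lower, 128 were called lower at pH 6.0 (33.3%, and 13.6% of the 943 there, which are 7.79% of all loci) and 320 (83.3%) had a negative change. Opposite calls were made at 10 of the higher and 6 of the lower loci. Whether the effect of oxygen differs between the pH values was not tested, as there is 1 library for each.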

How the data were processed

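Sequencing libraries of 3 gradient fractions were analysed, 1 for each fraction and condition, so no p-value, SD or interval is given. The values used are FPKM per assembled locus as the authors deposited them. Per the submitters' processing notes, the tools were STAR 2.5.0, bcl2fastq, Cuffnorm and Cufflinks 2.2.1, with the build GRCh38, but no roles are recorded. How libraries were normalized, which annotation was used and whether strand was used is not given in the sources used here. Beside these, the authors deposited a signal, FPKM multiplied by 1 RNA concentration factor per library, per the file headers. The 6 factors were recovered from it for an alternative scaling. FPKM keeps no counts, so the depth is known only relative to the first library and not apart from the normalization.

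Loci with a mean of at least 1 FPKM over the 6 libraries were kept. Changes are log2 of (FPKM + 1), hypoxia over normoxia, minus the median locus. A call needs a 2-fold change of the unweighted mean and 1 direction in the 3 fractions, and a shift is counted past 1.5-fold. Gene lists (44) were matched to loci that name 1 gene, and members in loci naming several genes are given apart. Genes were named by size: the 15 largest changes each way, the 10 largest shifts each way, 5 loci with opposite fractions, up to 5 per list, and a fixed set of genes of oxygen response, stress and growth. Other members of the lists, and second loci of a name, were added after their values were seen. The gene lists, the members and the rules were chosen with earlier results of these data known. Coordinates and transcript lengths come from GENCODE 29 by gene name. The alternatives were other pseudocounts, minimum levels, centring, weights, RNA scaling, leaving out a fraction, a stricter call, and, added after seeing the data, protein-coding loci only. The steps were tested on simulated data. Python 3.11.15, pandas 2.3.3, numpy 2.4.6, scipy 1.17.1 and matplotlib 3.10.9 were used.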

Additional observations from a re-analysis of the deposited data

Results flagged for a closer look

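At 4 named loci the centred changes of all 3 fractions went one way with hypoxia at pH 7.4 and the other way at pH 6.0. The size given is the change of the mean at pH 7.4 minus that at pH 6.0, and the difference was not tested, as there is 1 library per fraction, oxygen level and pH. The monosome-confined SIRT1 locus differed by -3.65, from changes of -3.01 at pH 7.4 and 0.64 at pH 6.0. IL8, a chemokine, differed by 3.14, from 1.86 to -1.27, and was called lower in hypoxia at pH 6.0. CYR61, a matrix-associated signalling protein, differed by 3.13, from 1.64 to -1.49, and was also called lower there. At pH 6.0 CYR61 had 43.8, 21.6 and 23.8 FPKM in the monosome, oligosome and polysome fractions of normoxia and 9.42, 11.0 and 11.2 FPKM in hypoxia. PLAT, the tissue plasminogen activator, differed by 1.21, from 1.01 to -0.21. At pH 6.0 PLAT had 1.25, 1.05 and 2.04 FPKM in normoxia and 0.675, 0.956 and 2.07 FPKM in hypoxia. Its polysome change there, -0.03, was thus below 0 only after centring, and PLAT was not called at pH 6.0.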

How the results depend on the processing

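No paired analysis was possible because each condition has 1 library per fraction. Of the 265 loci named by rule, none that was called changed direction under the alternatives that gave it a value, but 73 lost the call when each fraction had to pass 2-fold, 40 with a pseudocount of 5, 26 without the monosome fraction, 23 with RNA scaling, 14 without the polysome fraction and at most 10 under any other. A minimum of 5 FPKM gave values for 228 of them and protein-coding loci alone for 253. The counts of called loci, 699 higher and 384 lower, stayed within 1.5 times under no minimum, no centring, fractions weighted by RNA factors, and without the monosome or oligosome fraction, and the other alternatives moved at least one of them. A pseudocount of 5 gave 315 and 150, a pseudocount of 0.1 gave 678 lower, and a minimum of 5 FPKM, which compares fewer loci, gave 438 higher. Scaling by the RNA factors without centring gave 426 and 1471, and it moved the median locus from -0.04 to -0.37 for the mean. Leaving out the polysome fraction gave 701 lower, a call in each fraction 262 and 56, and protein-coding loci alone 418 and 160. In the monosome fraction a pseudocount of 5 gave 835 higher and 707 lower, and a minimum of 5 FPKM 857 and 745. In the oligosome fraction pseudocounts of 0.1 and 5 gave 1064 and 265 higher, and 1023 and 171 lower. In the polysome fraction they gave 1261 and 354 higher, and 1049 and 175 lower, and the minimum of 5 FPKM 291 lower. For 2-fold in each fraction they gave 419 and 113 higher, and 261 and 8 lower. Shifts numbered 1415 towards polysomes and 1710 towards monosomes with a pseudocount of 5, 1359 and 1543 with a minimum of 5 FPKM, and 1172 and 1141 as polysome over oligosome. List medians that turned negative under RNA scaling were those of the citric acid cycle (-0.18), the mTORC1 pathway (-0.33), NRF2 targets (-0.24), p53 targets (-0.20), the respiratory chain (-0.35) and translation factors (-0.21). Without the monosome fraction the medians of metallothioneins (-0.13), the respiratory chain (-0.16) and ribosomal proteins (-0.28) turned negative. The citric acid cycle was at -0.029 without the polysome fraction and histones at 0.075 without the oligosome fraction. Median shifts that changed sign were those of lipid droplet genes (-0.11, pseudocount 0.1), markers of other cell types (0.26, minimum of 5 FPKM) and histone demethylases (-0.17, minimum of 5 FPKM). For the moved counts and reversed medians the cause was not tested beyond what each setting does by construction. A single fragment stands for more FPKM in the monosome libraries than in the others, which limits low loci most.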
